A study of Mus musculus with 5 samples.

Results

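In mouse hematopoietic stem cells (HSCs), 181 zinc finger genes with a symbol of Zfp and 3 digits were followed from control to Syncrip-deficient cells. They were the genes of that name whose mean normalised read count over the 3 control libraries was at least 100, and they made up 181 of the 284 such symbols and of the 24046 gene symbols in the table. The members were thus chosen by their measured control level, and what follows for knockout against control is a description of chosen genes.

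Marrow of Syncrip f/f mice with or without the Mx1-Cre transgene was transplanted into congenic CD45.1 recipients. Both groups received polyinosinic:polycytidylic acid (pIpC), an interferon inducer that switches on the Mx1 promoter, and donor HSCs were sorted 9 weeks after the transplant and 3 weeks after pIpC as CD45.2+, lineage-, Sca1+, c-Kit+, CD150+ and CD48- cells. Mx1-Cre- donors are called WT here (n = 3 libraries, WT 1, WT 2 and WT 3) and Mx1-Cre+ donors KO (n = 2 libraries, KO 2 and KO 3). Mx1-Cre also acts in other cells that respond to interferon, and only the Cre transgene separated the groups, since both carried the floxed alleles, the graft and the drug. The labels do not say that each library came from a separate animal, so p-values measure the spread between libraries, which may in part be technical.

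Zfp genes encode proteins with C2H2 zinc fingers, short loops folded around a zinc ion that stand in tandem and read DNA a few bases at a time. Many of them also carry a KRAB domain, which recruits the corepressor TRIM28 and, through it, the histone methyltransferase SETDB1, and such proteins silence retroelements and guard imprints. These KRAB genes arose by repeated duplication and lie in clusters. Others lack KRAB and act as activators, as subunits of chromatin complexes, or on RNA and ribosomes.

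The fingers are joined by a short conserved linker, and the DNA that encodes it shows how the members differ in base composition over matching segments. The linkers are alike but not identical in protein sequence, so the codons differ in part because the residues do. The stretches below run from the last zinc-binding residue of one finger to the first of the next, in the first such linker of each gene, 5′ to 3′ on the coding strand. They are shown for the 4 members with the lowest and the 4 with the highest log2 fold change among those without overlap between the groups and with such a linker in a single exon, the lowest listed first, and capitals mark G or C at the last base of a codon. All come from GENCODE M21 transcripts (GRCm38).
Zfp808: catactggagaGaaaccCttCaaatgt
Zfp932: catagtggagaGaaaccCtatgaatgt
Zfp953: catacaggagaaaaaccCtaCaaGtgt
Zfp429: cattctggagaGaaaccCtaCaaatgt
Zfp771: caCacGggCgaGcgtccCtttgcGtgC
Zfp358: caCagtggagaGaaGccttaCcgCtgt
Zfp777: caCacGggtgaGcgGccCtaCacGtgC
Zfp668: caCactggtgaGaaaccCttCccGtgC

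All 8 stretches lie in coding exons. Zfp808 (chr13:62171505-62171531, + strand), Zfp932 (chr5:110008813-110008839, + strand), Zfp953 (chr13:67343470-67343496, - strand) and Zfp429 (chr13:67390709-67390735, - strand) have them in the fourth and final exon of the transcript used. Zfp771 (chr7:127253916-127253942, + strand) and Zfp777 (chr6:48025127-48025153, - strand) also have them in the last exon, as has Zfp358 (chr8:3495945-3495971, + strand), while the linker of Zfp668 (chr7:127868061-127868087, - strand) is in exon 2 of 3. Of the 9 codons, 2 to 3 ended in G or C in the stretches of Zfp808, Zfp932, Zfp953 and Zfp429. The corresponding counts were 7 in Zfp771, 5 in Zfp358, 8 in Zfp777 and 6 in Zfp668. Across the 119 members with such a linker in a single exon outside chromosome 18, the median was 4 of 9 codons among the 49 whose KO values both lay below WT and 7 of 9 among the 22 whose KO values both lay above.

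The libraries held 12539599 to 22779536 reads, and both KO libraries were shallower than all WT libraries, so depth and genotype cannot be told apart. Syncrip, the targeted gene, had normalised read counts of 1944, 1440 and 1794 in WT and 294 and 343 in KO (log2 fold change -2.43 ± 0.22 SE, adjusted p = 0.0352), as the labels say. Of the genes that define the gate, Kit stood at 8007 to 10741 in all 5 libraries and Slamf1, which encodes CD150, at 195 to 522. Ly6a, which encodes Sca1, varied among the WT libraries, with 857, 298 and 279 there and 703 and 670 in KO. Genes of proteins that the gate sorts against were read too. Cd48 stood at 601 to 768 in WT and 191 to 459 in KO, and Itgam at 7074 to 11353 and 2313 to 5158. Genes of the neutrophil lineage (Elane, Mpo, Prtn3, Ltf, S100a8, S100a9) made up 3.68 to 4.45% of the WT libraries, 3.62% of KO 2 and 1.91% of KO 3. They differed among themselves, with log2 fold changes from -1.51 for S100a8 to 0.30 for Prtn3, and only Ltf lay below WT in both KO libraries. Of 8 adipocyte genes, 7 were above the WT libraries in KO 2, which held 5622 Ucp1 and 7687 Fabp4, while Lep was at 0 there. The 8 summed to 23429 in KO 2 and to 88.1 to 267 in the other 4 libraries. The part of these other cells in the values below was not tested, and the main counts are also given without each KO library.

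Translated GENCODE coding sequences were searched for fingers and for a KRAB box. The pattern of a KRAB box was found in 80 members, and 101 had none. Members held a median of 9 finger matches and at most 36, with a median of 11 in those with KRAB and 7 in those without, and 5 members had none that the pattern could find. In WT, the median normalised read count was 214 for KRAB members and 566 for the others, and per kilobase of the longest annotated transcript these medians were 63.4 and 148.

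The member with the highest WT level was Zfp207, whose protein (BuGZ) binds the spindle checkpoint protein BUB3. It was read at 4638, 4336 and 4555 in WT and at 3785 and 2945 in KO. Both KO values were below every WT value, with a log2 fold change of -0.43 ± 0.18 (adjusted p = 0.158). Zfp706, which in embryonic stem cells promotes the exit from self-renewal, followed with 5058, 3934 and 4164 in WT and 3399 and 4304 in KO. Here the groups overlapped (log2 fold change -0.19 ± 0.19, adjusted p = 0.542). Zfp106, an RNA-binding protein, was next, with means and SDs of 3592 ± 313 over the 3 WT libraries and 2645 ± 224 over the KO pair, again with no overlap (adjusted p = 0.147). Per kilobase of transcript the WT order among these was the same, at 1375 ± 47.6 for Zfp207, 993 ± 134 for Zfp706 and 395 ± 34.5 for Zfp106, and the differences were larger than the spread of the libraries. That spread does not cover the choice of the longest transcript as the length of each gene.

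No member passed an adjusted p of 0.05 between KO and WT (limma on log2 values, Benjamini-Hochberg over 13661 genes), against 1 gene in all, or 0.00732% of those tested and 0.00957% of the 10450 genes that met the same control limit. That gene was Syncrip. The lowest adjusted p among the members was 0.0815. At an unadjusted p under 0.05, 26 members were higher and 49 lower in KO, against a background of 14.8% higher and 17.9% lower. With DESeq2 on the recovered reads, 49 members passed, 19 higher (background 9.57%) and 30 lower (background 10.8%). edgeR called 0 members.

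Counted without a model, 37 of the 181 members (20.4%) had both KO values above all WT values and 69 (38.1%) had both below, while 75 overlapped. The corresponding shares of all genes under the same limit were 24.6% above and 26.7% below. The median log2 fold change was -0.31 over the members and -0.03 over all those genes. The quartiles of the members were -0.80 and 0.41. Of the members, 31 were at least 2-fold lower and 13 at least 2-fold higher (background 7.09% and 4.11%). Their summed share of the library was 0.588, 0.540 and 0.513% in WT and 0.511 and 0.610% in KO, so that the sum over all members overlapped between groups. Without KO 2, 65 members lay above all WT values and 95 below, where all genes under the limit gave 39.3 and 42.2%. Without KO 3, 39 lay above and 84 below, beside 32.0 and 33.5% of all genes.

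Members with and without the KRAB pattern differed in these counts. Among the 80 KRAB members, the median log2 fold change was -0.79, 66 had a negative value, 45 (56.2%) had both KO values below WT and 7 (8.75%) had both above. Among the 101 members without KRAB, the median was 0.11, and 24 (23.8%) lay below and 30 (29.7%) above. All genes under the limit gave 26.7% below and 24.6% above. The KRAB transcripts had a median of 42.6% GC, and 67.5% of all genes under 42% GC and 46.1% from 42 to 48% lay below. Without KO 2, 61 KRAB members lay below and 14 above, and 34 and 51 of the others, beside 42.2 and 39.3% of all genes. Without KO 3, 48 KRAB members lay below and 7 above, and 36 and 32 of the others, beside 33.5 and 32.0% of all genes. Summed over the KRAB members, the normalised read count was 28809, 22128 and 23738 in WT and 19333 and 19253 in KO. Both KO libraries were below every WT library, and the KO mean was 77.5% of the WT mean. Over the members without KRAB it was 78432, 79737 and 76476 in WT and 76774 and 96883 in KO, where only KO 3 stood above the WT range.

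**Figure D1:**
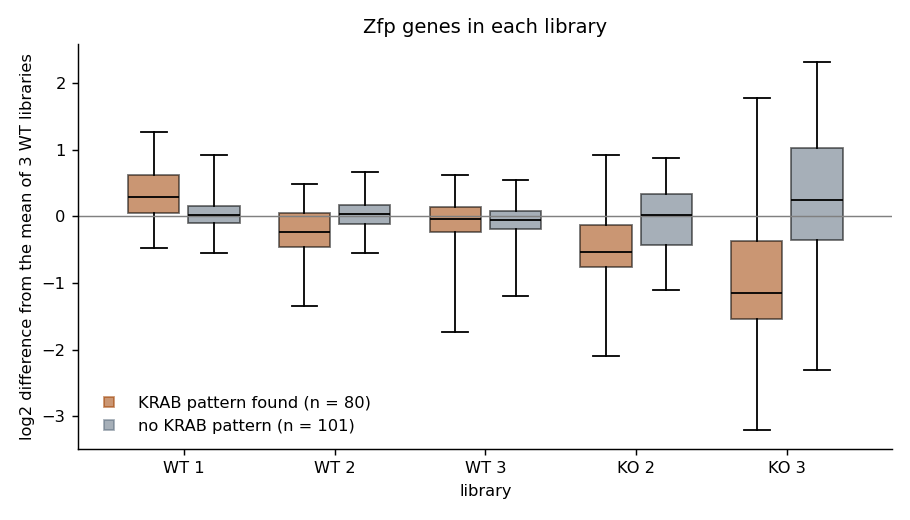
Box plots of the log2 difference of each Zfp gene from its mean over 3 WT libraries, by library, for the 80 genes with a KRAB pattern and the 101 without; boxes give quartiles, lines medians and whiskers the lowest and highest gene. The median of the KRAB genes was 0.28, -0.23 and -0.04 in WT 1, WT 2 and WT 3 and -0.54 and -1.15 in KO 2 and KO 3.

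The WT libraries themselves differed on these genes. The median log2 difference of the KRAB members from the WT mean ran from -0.23 in WT 2 through -0.04 in WT 3 to 0.28 in WT 1, while KO 2 stood at -0.54 and KO 3 at -1.15. The distance from WT 2 to WT 1 was larger than that from WT 2 to KO 2. WT 1 was the library with the highest value for 49 of the 80 KRAB members, and KO 3 the one with the lowest for 58. For the members without KRAB, the medians were 0.02, 0.03 and -0.06 in WT, 0.02 in KO 2 and 0.25 in KO 3, and KO 3 was the highest library for 50 of the 101.

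The 6 members lowest in KO, among those without overlap, all had a KRAB pattern. Zfp808 was read at 301, 58.1 and 187 in WT and at 44.2 and 15.2 in KO. Both KO values were the lowest of the 5, although WT 2 came close to KO 2 (log2 fold change -2.47 ± 0.75, adjusted p = 0.0971). Zfp935 stood at 185, 89.4 and 122 in WT and 28.8 and 24.3 in KO, with a wider gap between the groups (log2 fold change -2.21 ± 0.49, adjusted p = 0.0815). Zfp932, which represses endogenous retroviruses together with its paralog Gm15446, was read at 228, 114 and 135 in WT and 56.5 and 21.3 in KO (log2 fold change -2.09 ± 0.55, adjusted p = 0.0836). Zfp953 had 119 ± 52.8 in WT and 32.3 ± 24.2 in KO, Zfp429 had 108 ± 46.6 and 26.6 ± 11.8, and Zfp850 had 150 ± 53.6 and 41.4 ± 19.9 (SD, n = 3 and 2). In every one of these 6 genes WT 2 was the lowest WT library, WT 1 the highest, and KO 3 the lowest of all. With the trend of all genes with transcript length and GC content removed, the 6 log2 fold changes ran from -1.48 for Zfp808 to -1.04 for Zfp953.

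Some of these genes share sequence with close copies, and how the counting treated reads that fit several genes is not given in the sources used here. Of the 50-base words in its transcript, Zfp808 shared 46.4% with other genes, Zfp932 55.5%, of which nearly all with Gm15446, and Zfp429 26.1%. All words of the Zfp935 transcript occurred in another gene, so its values are uncertain. Zfp953 and Zfp850 shared 5.21% and 1.39%. Sharing above 25% was found in 8 of the 80 KRAB members. Over the other 72 KRAB members the median log2 fold change was -0.78, with 39 below and 7 above all WT values.

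**Figure D2:**
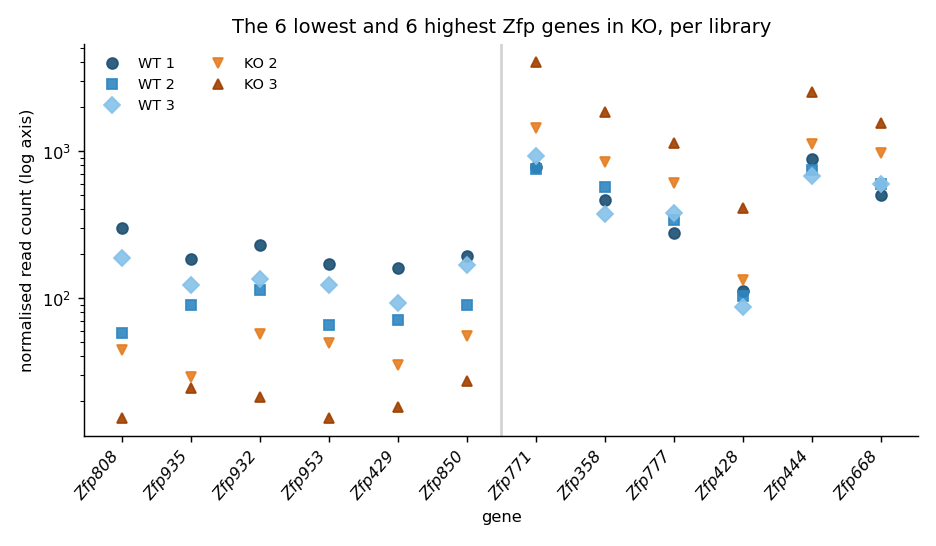
Normalised read counts in each of the 5 libraries (log axis) of the 6 Zfp genes with the lowest and the 6 with the highest log2 fold change among the genes without overlap between the groups. KO 3 (dark triangles) was the farthest library from WT in all 12 genes, from 15.2 for Zfp808 to 4040 for Zfp771.

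Of the KRAB members with a known role, 4 are described here. Both KO values lay below WT in each, as in 56.2% of KRAB members and 26.7% of all genes under the limit. Zfp445, which together with Zfp57 maintains imprints, was read at 1390, 1529 and 1307 in WT and 974 and 544 in KO. Both KO libraries were below all WT libraries, KO 3 far more than KO 2 (log2 fold change -0.95 ± 0.27, adjusted p = 0.0888). Zfp568, which silences a placental promoter of Igf2, had 507, 509 and 538 in WT and 375 and 158 in KO (log2 fold change -1.09 ± 0.36, adjusted p = 0.111). Zfp809, which recognises the primer binding site of murine leukemia viruses and silences them, had 286, 325 and 379 in WT and 221 and 202 in KO (log2 fold change -0.63 ± 0.28, adjusted p = 0.182). Zfp110, a binding partner of the neurotrophin receptor p75, had 758 ± 46.1 in WT and 423 ± 184 in KO (adjusted p = 0.105). None of these 4 genes shared over 1.47% of its words with another gene, none overlapped between the groups, and none passed the threshold. After removal of the length and GC trend, the log2 fold change was -0.50 for Zfp445, -0.91 for Zfp568, -0.27 for Zfp809 and -0.67 for Zfp110.

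At the other end, the member highest in KO was Zfp771, read at 774, 754 and 930 in WT and at 1423 and 4040 in KO. Both KO values exceeded every WT value, but the second was more than 2 times the first, and the log2 fold change was 1.55 ± 0.38 (adjusted p = 0.0818). Zfp358 showed the same order, with 467, 571 and 375 in WT and 842 and 1827 in KO (log2 fold change 1.42 ± 0.35, adjusted p = 0.0818). Zfp777 was the only one of the 6 with a KRAB pattern and had 276, 338 and 381 in WT and 604 and 1130 in KO (log2 fold change 1.33 ± 0.32, adjusted p = 0.0816). Zfp428 had 101 ± 12.3 in WT and 271 ± 196 in KO, Zfp444 had 765 ± 102 and 1811 ± 976, and Zfp668 had 566 ± 54.3 and 1251 ± 410 (SD, n = 3 and 2). In each of these 3 genes KO 3 was far above KO 2. With the trend of all genes with transcript length and GC content removed, the log2 fold change was 0.21 for Zfp771 and 0.19 for Zfp428, and it was 0.91 for Zfp358, 0.65 for Zfp777, 0.96 for Zfp444 and 0.97 for Zfp668.

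Transcript GC content ordered the members in the same way. The median GC content of the transcript was 42.6% in KRAB members and 51.0% in the others, and at the last base of codons it was 43.0% and 60.0%. In members with a transcript under 42% GC (n = 54), the median log2 fold change was -0.98, 43 had both KO values below WT and 1 had both above. That member was Zfp326, a subunit of a complex that couples elongation to splicing, which was read at 319, 187 and 265 in WT and 385 and 343 in KO (adjusted p = 0.290). From 42 to 48% GC (n = 47), the median was -0.36, with 20 below and 3 above. From 48 to 55% GC (n = 45), it was 0.13, with 6 below and 10 above. At 55% GC or more (n = 35), it was 0.73, with 0 below and 23 above.

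All genes under the same control limit showed this order too, with medians of -0.74, -0.36, 0.09 and 0.51 in the 4 GC classes. Under 42% GC, 67.5% of all genes lay below WT, beside 79.6% of the members, and from 42 to 48% GC 46.1% did, beside 42.6%. From 48 to 55% GC, 12.8% of all genes lay below and 26.4% above, beside 13.3 and 22.2% of the members, and at 55% or more 59.1% lay above, beside 65.7%. The member counts of the 2 middle classes were thus near those of all genes. Without KO 2, 50 of the 54 members under 42% GC lay below and 31 of the 35 at 55% or more lay above, beside 82.2 and 78.8% of all genes in these classes. Without KO 3 the counts were 46 and 24, the latter 68.6% of its class, beside 74.1 and 67.4% of all genes. Across genes, the log2 fold change rose by 0.92 per 10 percentage points of GC over the members (Pearson r = 0.81, Spearman rho = 0.82, n = 181) and by 0.70 over all genes (r = 0.67, rho = 0.69, n = 10384). These genes share libraries and are not independent, so no p is given. The slope also differed between libraries of one genotype. Against the mean of the other WT libraries, it was -0.40 per 10 points over the members in WT 1, 0.42 in WT 2 and -0.02 in WT 3, and against all 3 WT libraries it was 0.57 in KO 2 and 1.26 in KO 3. The mean transcript GC content of all reads was 49.97, 50.7 and 50.2% in WT and 51.3 and 52.2% in KO, so that GC content, depth and genotype moved together.

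**Figure D3:**
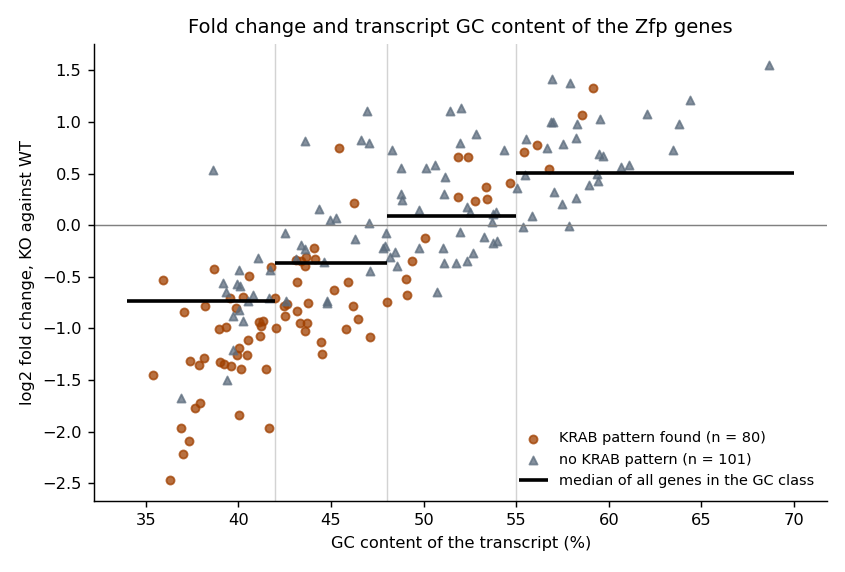
Log2 fold change of KO against WT (vertical axis) against transcript GC content in percent (horizontal axis) for the 181 Zfp genes, with KRAB genes as circles and the others as triangles; black lines give the median of all genes under the same control limit in each GC class. The 54 Zfp genes under 42% GC had a median of -0.98 and the 35 at 55% or more a median of 0.73.

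Within the 2 GC classes that held most KRAB members, their medians were below those of the other members. Under 42% GC, the 37 KRAB members had a median log2 fold change of -1.26 and the 17 others one of -0.68, beside -0.74 for all genes. The counts went the other way, with 28 (75.7%) of these KRAB members and 15 (88.2%) of the others below WT. The median of these KRAB members also differed among WT libraries, from -0.46 in WT 2 to 0.59 in WT 1. From 42 to 48% GC, the 26 KRAB members had a median of -0.77 and the 21 others -0.13, beside -0.36 for all genes. Here 15 (57.7%) and 5 (23.8%) lay below WT, and the median GC content was 43.7 and 45.0%. From 48 to 55% GC, the 12 KRAB members stood at 0.24 and the 33 others at 0.12, and at 55% or more the 5 KRAB members stood at 0.78 and the 30 others at 0.71. When the trend with length and GC content over all genes was removed from each library, the median of the KRAB members was -0.32, that of the members without KRAB 0.02 and that of all members -0.10, beside -0.04 for all genes. Then 24 members had both KO values above WT, against 17.21% of all genes under the limit, and 40 had both below, against 20.96%. Of the members described by name with a fold change, Zfp148, Zfp207, Zfp281, Zfp644 and Zfp706 then had small positive values and Zfp598 a negative one.

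The number of fingers went with the KRAB pattern. The 37 members with fewer than 5 finger matches had a median log2 fold change of 0.15, with 15 (40.5%) above and 10 (27.0%) below WT. The 61 members with 5 to 9 had one of -0.15, with 14 (23.0%) above and 20 (32.8%) below, and the 83 members with 10 or more had one of -0.65, with 8 (9.64%) above and 39 (47.0%) below. All genes under the limit gave 24.6% above and 26.7% below. The median GC content of these 3 classes was 49.8, 47.8 and 43.6%.

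Zfp genes often lie side by side in the genome. Linking members on a chromosome with no more than 500 kb between them gave 14 groups of at least 3, with 76 members in all. The lowest group was on chromosome 13 (chr13:67339306-67687071, GRCm38), where all 4 members had a KRAB pattern and log2 fold changes from -1.97 to -1.32. Its median was -1.68, and -0.87 once the length and GC trend was removed. It holds Zfp953 and Zfp429, and its transcripts had a median of 39.6% GC. A pair of groups on chromosome 17 (chr17:32765496-33631779 and chr17:21707741-22867134) held 8 and 6 members with medians of -1.03 and -0.81. With the trend removed these were -0.43 and 0.08.

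The groups with positive medians were elsewhere. On distal chromosome 7 (chr7:127233061-127885996), 10 members that include Zfp771 and Zfp668 had a median of 0.66, with 5 above WT and 0 below. On chromosome 6 (chr6:47835661-48623227), 9 members that include Zfp777 had a median of 0.74, with 4 above and 0 below, although 5 of the 9 had a KRAB pattern. Here the median GC content was 55.4%. On proximal chromosome 7 (chr7:4915217-5038446), 5 members without KRAB had a median of 0.88 at 58.9% GC, with 4 above and 0 below. The highest median, 1.10, was that of 3 members that include Zfp444 and Zfp667 (chr7:6131491-6307883), with 2 above and 0 below, at a median of 47.0% GC. Zfp667 itself had a log2 fold change of -0.34. Of all genes under the limit 24.6% lay above and 26.7% below, and of those at 55% GC or more 59.1 and 1.21%. With the trend removed, the medians of these 4 groups were 0.16 on distal chromosome 7, 0.29 on chromosome 6, -0.02 on proximal chromosome 7 and 0.96 in the group of 3. Over all groups, the 51 KRAB members had a median of -0.70 and the 25 others one of 0.67. Outside the groups, 29 KRAB members had one of -0.99 and 76 others one of -0.02. With the trend removed, these 4 medians were -0.16, -0.01, -0.36 and 0.04.

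**Figure D4:**
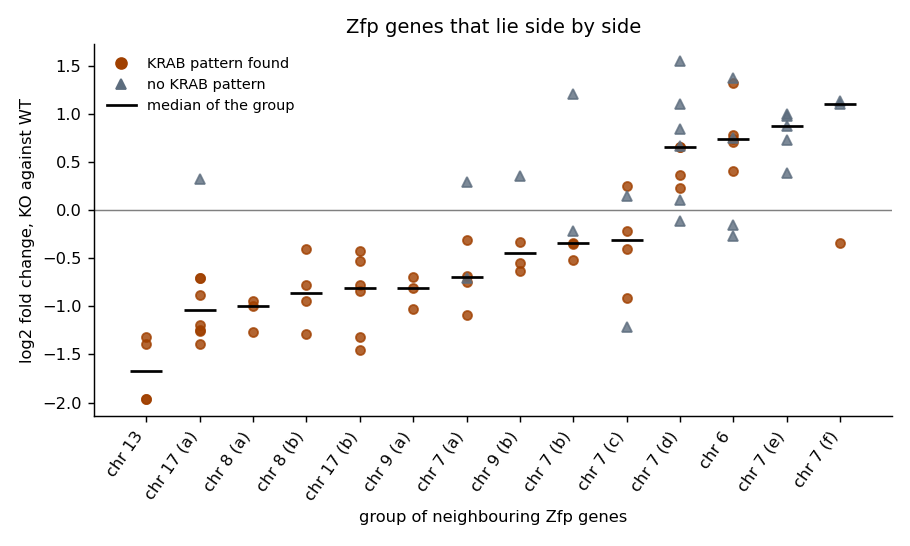
Log2 fold change of KO against WT for the 76 Zfp genes in 14 groups of neighbours, 1 column per group in order of its median (black line); circles have a KRAB pattern, triangles none, and letters only tell apart groups on 1 chromosome. Medians ran from -1.68 on chromosome 13 to 1.10 in a group of 3 on chromosome 7.

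Zfp622, Zfp593 and Zfp598, set side by side here after their values were seen, act in ribosome assembly or translation. None passed the test, and both KO values lay above WT in each, as in 24.6% of all genes, while the known-role list as a whole had 6 above and 17 below. Zfp622, a factor of late 60S subunit maturation, was read at 1271, 1503 and 1598 in WT and 1799 and 3608 in KO. The transcript GC content was 43.6% (log2 fold change 0.81 ± 0.29, adjusted p = 0.122). Zfp593, also a factor of 60S assembly, had 504, 554 and 475 in WT and 758 and 1377 in KO (log2 fold change 1.00 ± 0.28, adjusted p = 0.0891). Zfp598, the ubiquitin ligase that marks collided ribosomes, had 465, 644 and 635 in WT and 705 and 849 in KO, a smaller step (log2 fold change 0.43 ± 0.24, adjusted p = 0.278). With the length and GC trend removed, the log2 fold change was 1.25 for Zfp622, 0.51 for Zfp593 and -0.27 for Zfp598.

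Members that bind promoters were found on both sides. Zfp148 (ZBP-89), which binds GC boxes, had 1291, 1306 and 1235 in WT and 871 and 854 in KO. Its WT and KO values each lay close together and the groups were well apart (log2 fold change -0.57 ± 0.18, adjusted p = 0.105). Zfp143, which occupies promoters at chromatin loops, had 622, 586 and 639 in WT and 466 and 286 in KO (log2 fold change -0.75 ± 0.27, adjusted p = 0.124). Zfp281, a regulator of pluripotency, had 1014, 946 and 993 in WT and 656 and 936 in KO, where KO 3 nearly reached WT (log2 fold change -0.33 ± 0.22, adjusted p = 0.355). Zfp219 ran the other way, with 1109, 1216 and 1007 in WT and 1721 and 3165 in KO (log2 fold change 1.07 ± 0.27, adjusted p = 0.0818), as did Zfp574, with 1279 ± 309 in WT and 2548 ± 812 in KO (adjusted p = 0.0874). Zfp219 and Zfp574 had 62.1 and 58.3% GC, Zfp148 and Zfp143 39.9 and 44.8%. After removal of the trend with length and GC content, the log2 fold change was 0.19 for Zfp219, 0.36 for Zfp574, 0.12 for Zfp148 and -0.38 for Zfp143.

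Members that act on chromatin included genes with and without overlap. Zfp410, which activates Chd4, a core subunit of the NuRD complex, was read at 1681, 1429 and 1495 in WT and 1117 and 761 in KO, below WT in both (log2 fold change -0.73 ± 0.22, adjusted p = 0.0966). Its value was -0.36 after that trend was removed. Chd4 itself had 2997 ± 291 in WT and 3722 ± 754 in KO and overlapped. Zfp644, a partner of the histone methyltransferases G9a and GLP, had 1265, 896 and 872 in WT and 598 and 756 in KO (log2 fold change -0.57 ± 0.24, adjusted p = 0.176). Zfp592 and Zfp687, which form a complex with ZMYND8 and ZFP532, overlapped, with 1677 ± 65.2 in WT and 1620 ± 326 in KO and with 1724 ± 197 and 1701 ± 230. Zfp335, needed for T cell development, had 1017, 2030 and 1222 in WT and 2028 and 1816 in KO, and WT 2 lay above both KO libraries.

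Zfp521, a stem cell and progenitor factor, varied widely among the WT libraries, with 330, 265 and 84.8 in WT and 194 and 422 in KO (log2 fold change 0.55 ± 0.59, adjusted p = 0.564). Without WT 3 its value was -0.04, and without KO 3 it was -0.01. Zfp516, which drives the brown fat program and binds the Ucp1 promoter, did not follow the adipocyte genes of KO 2, as it had 397 there, 764 in KO 3 and 580.3 to 688 in WT. Zfp292 had 1094, 1018 and 1059 in WT and 617 and 652 in KO (log2 fold change -0.74 ± 0.19, adjusted p = 0.0837), with KO libraries that were close together. Its value was -0.10 after the length and GC trend was removed. Of all 34 members with a known role, 6 had both KO values above WT and 17 had both below, with a median of -0.32, beside 37 above and 69 below of all 181 members and 24.6 and 26.7% of all genes.

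The study listed transcripts that a fusion of SYNCRIP with an RNA editing enzyme marks in HSCs, and 765 of these genes met the control limit. They included 3 members (Zfp106, Zfp644 and Zfp706), that is 1.66% of the members and 0.392% of those genes, beside 7.32% of all genes under the limit. The median log2 fold change of the 765 genes was -0.47.

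The 18 genes listed as partners of KRAB proteins or as silencing factors gave 0 calls, with 3 above and 6 below all WT values, beside 24.6 and 26.7% of all genes, and a median log2 fold change of -0.10. Trim28, the corepressor that binds KRAB, was read at 5744, 6345 and 6040 in WT and 7202 and 10197 in KO, above WT in both (log2 fold change 0.51 ± 0.19, adjusted p = 0.139). Its direction changed when the length and GC trend was removed, to -0.20. Setdb1, its histone methyltransferase, had 1567 ± 155 in WT and 1174 ± 133 in KO, and Cbx5, an HP1 protein, had 3054 ± 347 and 1781 ± 890, both without overlap. Cbx3, another HP1 protein, had 478 ± 75.1 and 468 ± 45.1.

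The other zinc finger families, under the same control limit, were compared by the same counts, beside 24.6% above and 26.7% below over all genes. The 31 genes of the form Zfp and 1 or 2 digits had a median log2 fold change of -0.38, with 12 (38.7%) below WT and 0 above. The 14 of the form Zfp, 3 digits and letters had one of -1.05 at a median of 40.8% GC, with 9 (64.3%) below and 1 above. The 12 Zscan and Zkscan genes stood at -0.19, with 5 below and 2 above, and the 30 Zbtb genes at 0.08, with 6 below and 7 above. The 15 Klf and Sp genes stood at 0.07, with 4 below and 4 above, and the single Znf gene, above WT, at 0.49. Among all other genes with at least 3 finger matches, the 43 with a KRAB pattern had a median of -0.89, with 25 below and 0 above, and the 120 without had one of 0.03, with 31 below and 25 above.

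**Figure D5:**
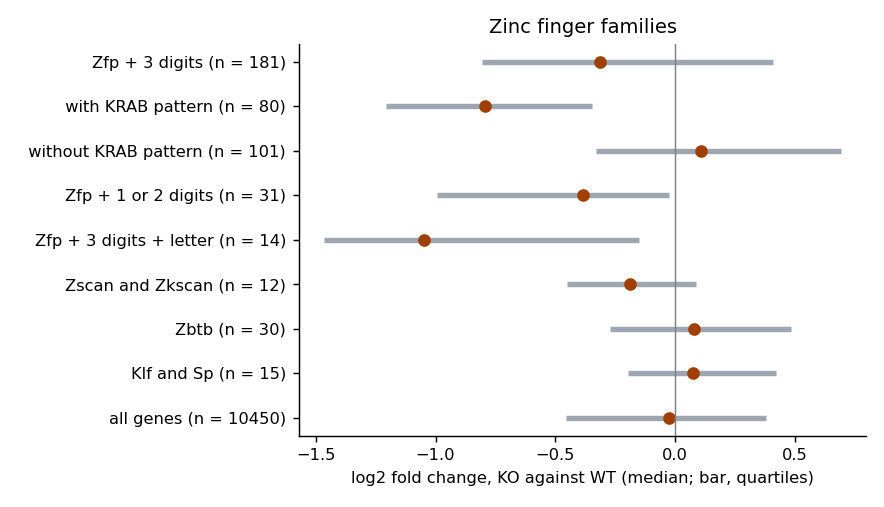
Median (point) and quartiles (bar) of the log2 fold change of KO against WT for the 181 Zfp genes, their KRAB classes, 5 other zinc finger families and all 10450 genes with a WT mean of at least 100. The lowest medians were -1.05 for Zfp with 3 digits and a letter and -0.79 for the KRAB genes.

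At the control limit, Zfp438 (100.02), Zfp428 (100.7), Zfp772 (104) and Zfp667 (105) lay just inside by their WT mean and Zfp563 (97.0), Zfp661 (95.9), Zfp933 (95.6) and Zfp580 (94.2) just outside. In KO, these had means of 156, 271, 52.4 and 82.5 and of 59.1, 92.2, 30.1 and 435. Because the limit was set on WT alone, 33 members had a KO mean under 100, whereas 1 symbol outside the members, Zfp580, had a KO mean above it. With the limit set on the mean of all 5 libraries instead, which gave 175 members, the median log2 fold change was -0.23.

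On the log2(value + 1) scale, the KO libraries disagreed most on 3 members. Zfp870 had 112 in KO 2 and 28.9 in KO 3, beside 148 ± 65.9 in WT. Zfp930 had 194 and 60.7, beside 283 ± 124. Zfp109 went the other way, with 54.5 and 179 beside 143 ± 20.97, so that KO 2 was below and KO 3 above its WT range. Of the 69 members below WT in both KO libraries, KO 3 was the lower in 59, and of the 37 above, it was the higher in 35.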

How the data were processed

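RNA sequencing of sorted HSCs was analysed from 1 deposited table of 24046 gene symbols. The authors deposited normalised signal, that is read counts divided by a size factor for each library, and per the labels the reads were processed with STAR, featureCounts and DESeq2 on mm10, with versions not given in the sources used here. A second table, of the authors' own fold changes and p-values, was not used. All positive values (100%, tolerance 0.02 reads) were whole multiples of 1 step per library, which gave 12539599 to 22779536 recovered reads. Members had at least 10 reads in every library. Counting precision is an upper bound, since the reads carried no molecular identifiers.

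Genes that reached a value of 10 in 2 or more libraries (13661) were fitted with limma (3.58.1, trend) on log2(value + 1), all 5 libraries and no covariate; fold changes are on that scale, which understates low genes. The call threshold was an adjusted p (Benjamini-Hochberg) under 0.05. edgeR (4.0.16) and DESeq2 (1.42.0) were run on the recovered reads. The limma step was also run on simulated data, the outcome of which is not reported here. All 181 members matched GENCODE M21 (2 through a RefSeq synonym). Transcript length and GC content are those of the longest annotated transcript of each gene. RefSeq proteins had been planned for the KRAB and finger patterns, and translated GENCODE coding sequences were used instead, with KRAB sought in the first 250 residues. In the whole annotation, KRAB matched 302 of 644 coding genes with at least 3 fingers and 26 of 21068 with none.

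Named genes were those on a list of 38 zinc finger genes with known roles (34 were members), the 6 highest and 6 lowest without overlap, the 6 with the highest WT mean, the 4 on each side of the control limit and the 3 with the widest gap between KO libraries. The letters of the KRAB and finger patterns, the alternatives run on the KRAB classes, the limits of the neighbour groups and GC classes, and the sequences shown were chosen after values were seen. The members and all lists were chosen with earlier results of these data known. Alternatives were another pseudocount, other filters, scalings, tools and control limits, a block by replicate number, each library left out, and removal of the length and GC trend.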

Additional observations from a re-analysis of the deposited data

How the results depend on the processing

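The number of members called depended on the tool and on KO 2. DESeq2 called 49 members, 2279 of all genes and 3 of the 18 silencing factors, against 0, 1 and 0 with limma. Of all genes, edgeR called 2 (1 higher), a pseudocount of 10 gave 2, and limma-voom, the filter on genes with any value above 0 and the removal of the length and GC trend each gave 0, while the calls among members stayed at 0 under each of these. Leaving out 1 library gave 0 to 58 members, 0 to 3024 genes and 0 to 7 silencing factors, and the highest counts (58 members, 26 higher and 32 lower, beside 11.9 and 15.3% of all genes under the same control limit) came without KO 2, where KO 3 is assumed to vary like the WT libraries. The cause was not tested. The median log2 fold change of the members was -0.10 with the length and GC trend removed and -0.15 with a control limit of 200, and it ran from -0.32 to -0.21 over the libraries left out. That of the KRAB members ran from -1.15 without KO 2 to -0.54 without KO 3 and was -0.32 with the trend removed. For the members without KRAB it ran from 0.023 to 0.25, and was 0.054 with limma-voom and 0.019 with the trend removed. Members with both KO values above all WT values numbered 38 to 65 when 1 library was left out and 24 with the trend removed, and those below numbered 40 with the trend removed.

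Of 32 named members with a fold change, 25 kept their sign in all 14 alternatives. With the length and GC trend removed, the log2 fold change was 0.12 for Zfp148, 0.16 for Zfp207, 0.15 for Zfp281, 0.19 for Zfp644, 0.27 for Zfp706 and -0.27 for Zfp598. That of Zfp521 ran from -0.044 without WT 3 to 1.11 without KO 2. DESeq2 took 20 of the 32 past the threshold, beside 9.57% of all genes under the control limit called higher and 10.8% lower. These 32 include the members with the highest and lowest fold changes without overlap, chosen for their change in the same data. A high count was thus built in by the choice of genes. Syncrip, at -2.43 with limma, missed the threshold with the wider filter (-2.43), with limma-voom (-2.46), with the trend removed (-1.53) and without any 1 of the WT libraries; leaving out 1 library gave -2.55 to -2.32.

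The replicate numbers 2 and 3 occur in both groups. Deviations of same-numbered libraries from their group means correlated at -0.06 and -0.18 across genes, so the numbers were not shown to pair libraries. A fit with the replicate number as a block, in which WT 1 has no partner, called 0 members and 6 genes, with a median over the members of -0.22. Depth limits the lowest values: KO 3, with 12539599 reads, held as few as 10 reads of a member, and a value of 15.2 there rests on 10 reads.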
